A study of Homo sapiens with 6 samples.

Results

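The annexins are a family of proteins that bind acidic phospholipids on the inner face of cell membranes when calcium rises. The genes described here are the 10 members ANXA1, ANXA3, ANXA4, ANXA5, ANXA6, ANXA7, ANXA9, ANXA10, ANXA11 and ANXA13, chosen by gene symbol from the 58735 genes of the table, with ANXA2 kept only as a reference. RNA was sequenced from AsPC-1, an established human pancreatic cancer cell line, in 3 libraries of cells carrying an empty lentivirus (Vector) and 3 libraries of cells carrying an MMP28 lentivirus (OE-MMP28). MMP28 is a secreted matrix metalloproteinase. The study's methods describe lentiviral constructs with GFP and puromycin resistance and selection of stably infected cells by puromycin, so each group was a selected population and not an unmodified culture. The study examined ANXA2 in connection with MMP28, and the comparison here asks how the RNA of the other annexins differed between the groups.

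Each annexin carries a conserved core of repeats that binds membrane through calcium, and an N-terminal tail that differs between members and binds partner proteins such as the S100 proteins. Annexins assemble on the cytoplasmic side of damaged membrane during plasma membrane repair, organise vesicle traffic and, outside the cell, bind exposed phosphatidylserine. ANXA9 and ANXA10 are divergent members in which the usual calcium-binding sites are largely lost.

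The libraries held between 13633249 and 16691458 counts, with between 23238 and 23982 genes detected. Where a gene had a count of 0, a level of up to 3 counts (0.180 to 0.220 CPM, depending on the library) could not be told from 0. This limit, and the exact interval given below for the ratio of ANXA6 counts, reflect counting error alone. The intervals of the edgeR fit also include the spread between libraries. No molecular identifiers are described for the reads. The labels do not say whether the replicates came from separate cultures, so p-values measure only the spread between these libraries. MMP28 itself lay at 5.17 to 9.11 FPKM in the Vector libraries and 13.1 to 15.1 FPKM in the OE-MMP28 libraries (adjusted p = 0.00226, edgeR). FPKM, the unit of every level here, divides the reads of a gene by its length and by the depth of the library. The 6 ductal epithelial markers summed to 2579 to 3520 FPKM in Vector libraries and 3517 to 4305 FPKM in OE-MMP28 libraries, mostly from KRT8, KRT18, KRT19 and EPCAM. KRT19 was called higher and CDH1 lower (adjusted p = 0.00175 and 0.0113, edgeR), and KRT7 was low, at 36 to 153 counts. The 6 leukocyte markers summed to between 0.737 and 1.24 FPKM over all libraries, with PTPRC at no more than 1 count. CD14 made up most of this sum, at 30, 22 and 28 counts in the Vector libraries and 22, 17 and 19 in the OE-MMP28 libraries. It was not called (adjusted p = 0.243, edgeR). The 4 endothelial markers summed to 0.0441 to 0.170 FPKM in Vector libraries and 0.179 to 0.293 FPKM in OE-MMP28 libraries, with KDR at 0 throughout and VWF at 7 to 19 counts. PECAM1, at 0, 4 and 4 counts against 13, 21 and 30, was the only one called (adjusted p = 0.00361, edgeR). It passed the filter on low counts only through the OE-MMP28 libraries, and any link of these markers to the annexin levels was not tested. Of 6 fibroblast markers, LUM was expressed at 37.3 ± 3.52 and 45.3 ± 10.1 FPKM (SD, n = 3 each; Vector, then OE-MMP28), whereas the others had at most 11 counts in a library.

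Upstream sequences are shown for ANXA6 and ANXA10, whose RNA differed most between the groups, and for ANXA4, the remaining member called higher. The sequences are from RefSeq (GRCh38.p14), 5′ to 3′ on the strand of the gene, and end before the annotated start of the gene. Capitals mark matches on either strand to TATAAA or to GGGCGG or to CCAAT, and matches may overlap. The windows are chr5:151157883-151158029 on the minus strand for ANXA6, chr4:168092287-168092514 on the plus strand for ANXA10 and chr2:69643558-69643807 on the plus strand for ANXA4.
ANXA6: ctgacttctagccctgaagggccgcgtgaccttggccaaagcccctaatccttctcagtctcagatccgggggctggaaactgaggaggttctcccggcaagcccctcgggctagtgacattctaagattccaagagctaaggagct
ANXA10: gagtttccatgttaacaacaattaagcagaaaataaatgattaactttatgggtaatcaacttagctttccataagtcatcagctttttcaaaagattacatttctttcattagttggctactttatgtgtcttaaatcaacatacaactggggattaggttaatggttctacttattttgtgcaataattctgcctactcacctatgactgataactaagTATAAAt
ANXA4: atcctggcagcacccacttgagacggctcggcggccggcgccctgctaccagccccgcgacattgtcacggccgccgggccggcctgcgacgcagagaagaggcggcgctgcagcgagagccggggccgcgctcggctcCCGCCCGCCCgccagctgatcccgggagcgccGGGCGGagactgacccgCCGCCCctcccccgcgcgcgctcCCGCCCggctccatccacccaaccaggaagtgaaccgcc

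The ANXA10 stretch was rich in A and T, with a GC content of 30.3%, no CpG and a TATAAA match 29 bases before the RefSeq start. The ANXA4 stretch had a GC content of 77.2%, 36 CpG and 5 GGGCGG matches. Its RefSeq start lay 617 bases before the annotated gene start, and the bases after it matched no GENCODE transcript of the gene. A second ANXA4 window, inside the gene and followed by bases of a GENCODE transcript, had a GC content of 71.6%, 21 CpG and 3 GGGCGG matches. The ANXA6 stretch, with a GC content of 57.1% and 5 CpG, held none of the searched motifs in the 147 bases printed, while its full window of 250 bases held 1 GGGCGG match and 1 CCAAT match. Of 35114 RefSeq windows of 250 bases before a start, 10.7% held TATAAA, 42.6% GGGCGG, 32.0% CCAAT and 6.57% TGANTCA, and the median window had a GC content of 58.0% and 11 CpG. Windows on chromosome 8 were left out of the search, and with them ANXA13. No window of the other 9 annexins held TGANTCA. These matches describe letters in the window and are not sites of binding.

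The RNA of ANXA6 and ANXA4 was called higher and that of ANXA10 and ANXA9 lower in OE-MMP28 cells. The ANXA4 call held in only 5 of 18 alternative settings, and the ANXA9 call in 2 of the 6 fits with 1 library left out. At an adjusted p under 0.05 (quasi-likelihood test of edgeR, adjusted by Benjamini-Hochberg over 15319 genes), 4 of the 10 annexins were called, against 23.4% of all genes tested. Of these, 2 were higher, against a background of 11.7%, and 2 were lower, against 11.6%. The study's cut-offs, an unadjusted p under 0.05 and a log2 fold change beyond 1 in either direction, were also applied to the edgeR fit. By them 2 of 10 were called, against 8.5% of the genes tested. ANXA6 was higher, with a background of 3.45% (528 genes), and ANXA10 lower, with 5.05% (774 genes). The study itself used limma and reported fewer genes in each direction. The median log2 fold change of the 10 members was -0.04, beside 0.01 for all genes tested, and the median of the absolute log2 fold changes was 0.35, beside 0.33. FPKM ranges of Vector and OE-MMP28 libraries were separate for 7 of the 10 members, against a background of 38.1%. All OE-MMP28 libraries were above all Vector libraries for 3 members (background 19.0%) and below them for 4 members (background 19.1%). All 10 members passed the filter on low counts, but ANXA6 passed it only through the OE-MMP28 libraries.

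**Figure D1:**
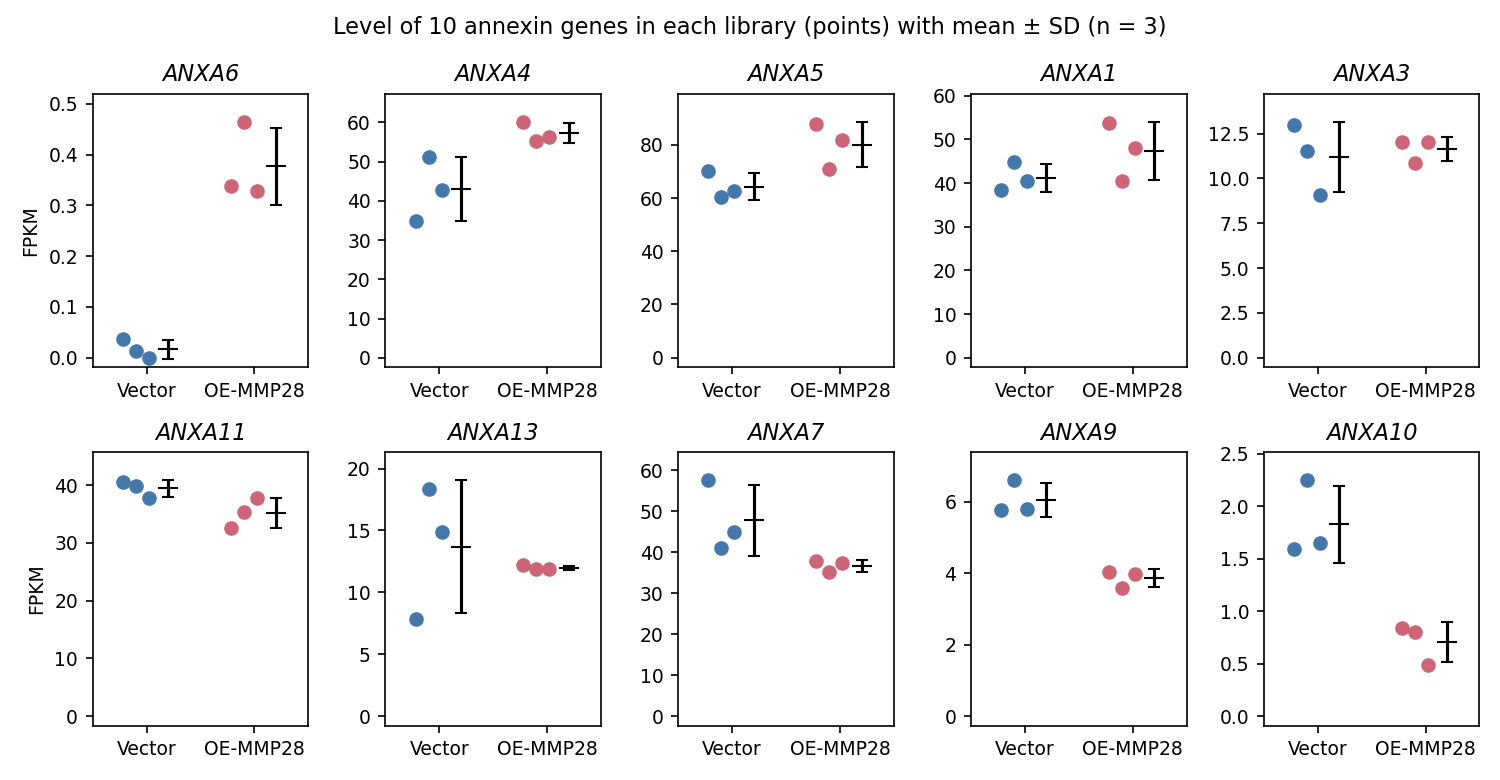
FPKM of the 10 annexin genes in each of the 3 Vector (blue) and 3 OE-MMP28 (red) libraries as points, with mean ± SD (n = 3) as bars, each gene on its own axis. ANXA6 and ANXA10 were the lowest members in both groups, and all 3 libraries of one group lay apart from all 3 of the other for both genes.

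ANXA6 (ENSG00000197043, chr5:151100712-151157882, minus strand, GRCh38) encodes the annexin with the longest core, a membrane scaffold that takes part in endocytosis, cholesterol traffic and membrane repair. It was counted 3, 1 and 0 times in the Vector libraries, in the order of their replicate numbers, and 29, 40 and 30 times in the OE-MMP28 libraries. Its FPKM values were 0.0362, 0.0136 and 0 in the Vector libraries and 0.338, 0.465 and 0.329 in the OE-MMP28 libraries. ANXA6 RNA was thus at 3 counts or fewer in every Vector library and low, but counted in every library, in the OE-MMP28 group. The summed counts of 4 and 99, scaled to library size, gave a ratio of 22.4 with an exact 95% interval of 8.48 to 83.8. The fitted log2 fold change was 4.37 (SE 0.62, adjusted p = 4.385e-05, edgeR), and depends on the prior count because the Vector level is near 0. It was 5.57 without Vector replicate 1 and 3.82 without Vector replicate 3, and on log2(FPKM + 1) and log2(FPKM + 0.1) the difference was 0.44 and 2.03. The call held in the 17 alternative settings that kept the gene, all of which compare the OE-MMP28 libraries with a group at or under 3 counts. In bulk RNA, fewer cells that express a gene and less RNA per cell cannot be told apart.

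ANXA4 (ENSG00000196975, chr2:69644425-69827100, plus strand) is an epithelial annexin that associates with secretory membranes. Its level was 34.8, 51.1 and 42.9 FPKM in the Vector libraries and 60.2, 55.3 and 56.3 FPKM in the OE-MMP28 libraries. The lowest OE-MMP28 library was above the highest Vector library, but the gap between them was smaller than the spread of 8.15 FPKM (SD, n = 3) within the Vector group. The log2 fold change was 0.43 (SE 0.15, 95% interval 0.11 to 0.75, adjusted p = 0.0488, edgeR), and the exact permutation p of the FPKM values was 0.1, the smallest that 3 against 3 libraries allow. This call was lost in 13 of 18 alternative settings, among them leaving out Vector replicate 1 (adjusted p = 0.191, edgeR) or Vector replicate 3 (0.135) or any single OE-MMP28 library (0.0888 to 0.131), with adjusted p-values ranging from 0.000438 to 0.195 over the 18 settings.

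ANXA10 (ENSG00000109511, chr4:168092515-168187690, plus strand) is an annexin of gastric and other foregut epithelia. Its counts were 44, 55 and 44 in the Vector libraries and 24, 23 and 15 in the OE-MMP28 libraries. On the FPKM scale these were 1.59, 2.25 and 1.65 against 0.838, 0.801 and 0.492. Every OE-MMP28 library was below every Vector library, and the mean level fell from 1.83 ± 0.364 to 0.710 ± 0.190 FPKM (SD, n = 3 each). The log2 fold change was -1.35 (SE 0.34, 95% interval -2.06 to -0.64, adjusted p = 0.00689, edgeR), and 373 of the genes tested had a lower one. The call held in 16 of 17 alternative settings and with each library left out. It was lost when low values were not filtered in limma on log2(FPKM + 1), with an adjusted p of 0.0849.

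ANXA9 (ENSG00000143412, chr1:150982017-150995634, plus strand) was measured at 5.77, 6.60 and 5.80 FPKM in the Vector libraries and 4.05, 3.59 and 3.97 FPKM in the OE-MMP28 libraries. The groups did not overlap, and the gap between them was wider than the spread within either group (SD 0.475 and 0.245 FPKM, n = 3 each). Its log2 fold change was -0.63 (SE 0.20, adjusted p = 0.0276, edgeR). The call ended when Vector replicate 2, Vector replicate 3, OE-MMP28 replicate 2 or OE-MMP28 replicate 3 was left out (adjusted p = 0.0815, 0.0704, 0.119 and 0.0577, edgeR), while the log2 fold change stayed between -0.68 and -0.57.

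**Figure D2:**
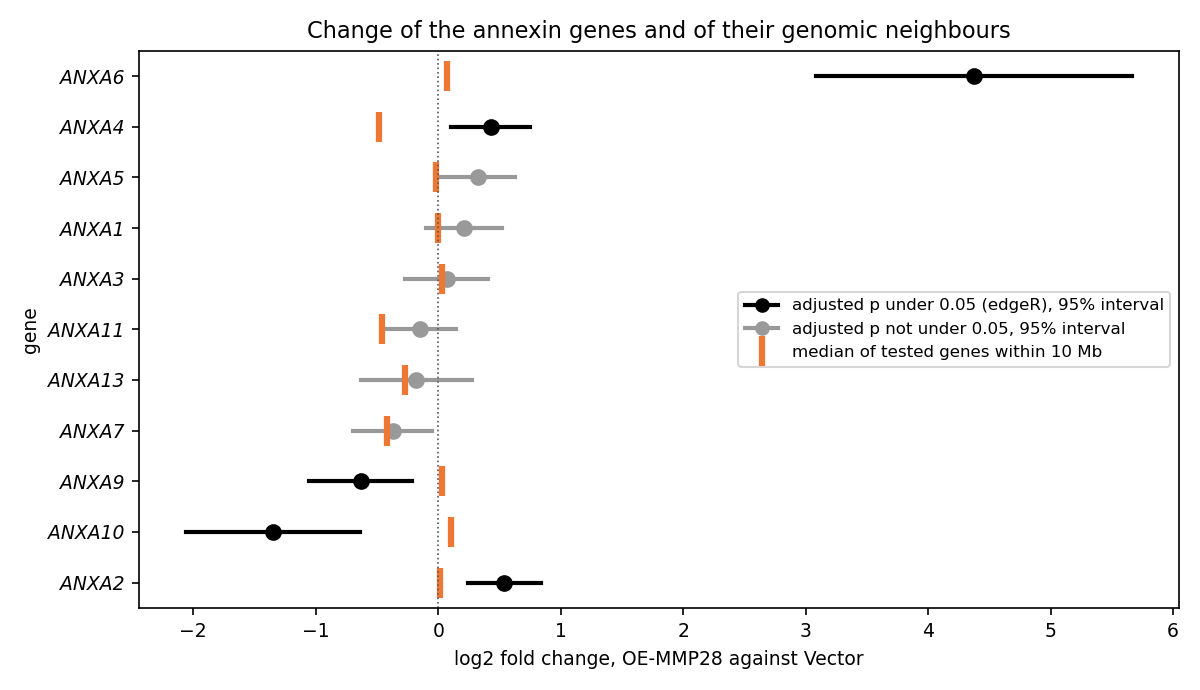
Log2 fold change (OE-MMP28 over Vector) with its 95% interval for each annexin, from the edgeR fit, with ANXA2 as reference and the median of tested genes within 10 Mb as an orange bar. The intervals of ANXA6, ANXA4, ANXA5, ANXA7, ANXA9 and ANXA10 excluded 0, and an adjusted p under 0.05 was reached by ANXA6, ANXA4, ANXA9 and ANXA10.

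Among the remaining 6 annexins no change passed the test. ANXA5 (ENSG00000164111, chr4:121667955-121697113, minus strand), the protein used as a probe for phosphatidylserine on dying cells, was measured at 70.1, 60.2 and 62.5 FPKM in the Vector libraries and 87.6, 70.8 and 81.8 FPKM in the OE-MMP28 libraries. The groups lay apart by less than 1 SD of either, and the log2 fold change of 0.33 (95% interval 0.03 to 0.63) had an adjusted p of 0.108 (edgeR). ANXA1 (ENSG00000135046, chr9:73151757-73170393, plus strand), a glucocorticoid-regulated protein that acts on formyl peptide receptors, was measured at 38.4, 44.7 and 40.5 FPKM against 53.7, 40.4 and 47.9 FPKM. Its groups overlapped, and its log2 fold change was 0.21 (95% interval -0.10 to 0.52, adjusted p = 0.329, edgeR). ANXA3 (ENSG00000138772, chr4:78551519-78610451, plus strand) was measured at 13.0, 11.5 and 9.07 FPKM against 12.01, 10.9 and 12.03 FPKM, with overlapping groups. Its log2 fold change was 0.07 (95% interval -0.27 to 0.40, adjusted p = 0.804, edgeR) and took the opposite sign, -0.06, without Vector replicate 3.

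ANXA7 and ANXA11 have long N-terminal tails, and ANXA11 is known to link RNA granules to lysosomes. ANXA7 (ENSG00000138279, chr10:73375101-73414076, minus strand) was measured at 57.5, 40.9 and 45.0 FPKM in the Vector libraries and 37.8, 35.1 and 37.3 FPKM in the OE-MMP28 libraries. The groups did not overlap, but the log2 fold change of -0.37 (95% interval -0.69 to -0.05) had an adjusted p of 0.0887 (edgeR), and it passed the test only without Vector replicate 2 (adjusted p = 0.0400, edgeR). The antisense gene AL512656.1 covers 3.67% of its exons and had at most 5 counts. ANXA11 (ENSG00000122359, chr10:80150889-80205572, minus strand) was measured at 40.5, 39.9 and 37.82 FPKM against 32.6, 35.3 and 37.78 FPKM. These groups met at almost the same value and overlapped on scaled counts, and the log2 fold change was -0.15 (95% interval -0.44 to 0.14, adjusted p = 0.473, edgeR). ANXA13 (ENSG00000104537, chr8:123680794-123737407, minus strand), an annexin of gut epithelium, was measured at 7.84, 18.4 and 14.9 FPKM against 12.2, 11.9 and 11.9 FPKM. The Vector libraries spread widely, with a coefficient of variation of 39.2% against 1.36% in the OE-MMP28 group, and the OE-MMP28 values lay within their range. The ANXA13 log2 fold change of -0.18 (adjusted p = 0.593, edgeR) became -0.46 without Vector replicate 1 (adjusted p = 0.0603, edgeR) and 0.09 without Vector replicate 2.

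**Figure D3:**
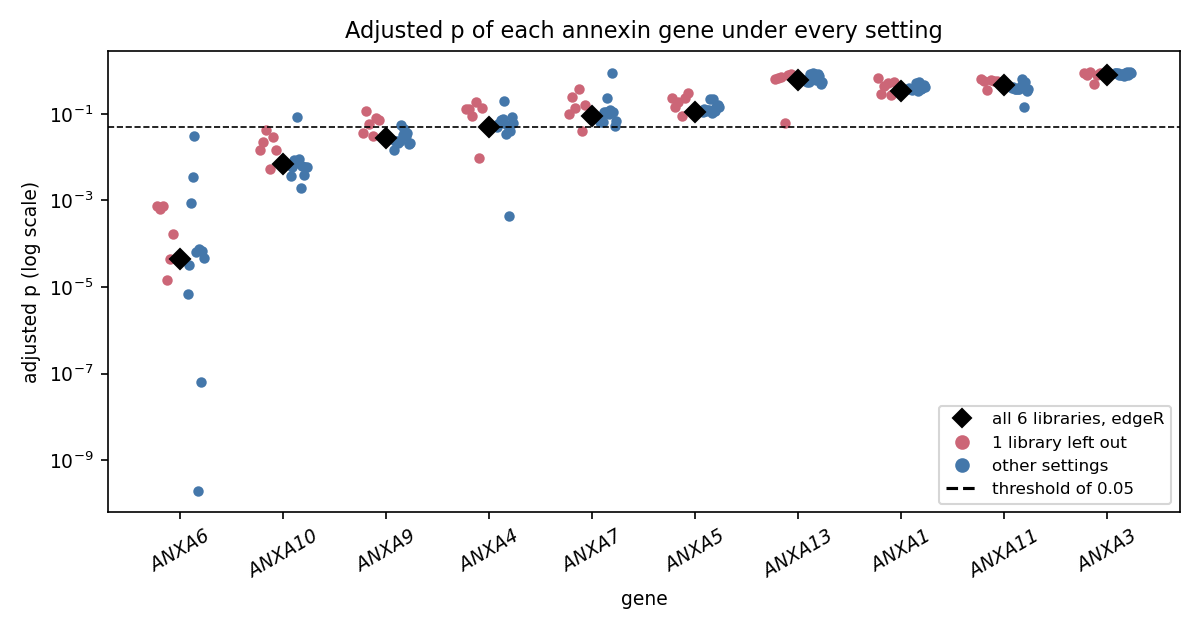
Adjusted p (log axis) of each annexin with all 6 libraries in edgeR (black), with 1 library left out (red) and under other settings (blue), with the threshold of 0.05 as a dashed line. ANXA6 lay below the line throughout and ANXA10 in all but 1 setting, whereas the points of ANXA9 and ANXA4 fell on both sides.

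The summed level of the 10 annexins was 269.6, 275.6 and 260.1 FPKM in the Vector libraries and 301.3, 264.6 and 289.8 FPKM in the OE-MMP28 libraries. These sums overlapped (mean 268.4 ± 7.83 against 285.2 ± 18.8 FPKM, SD, n = 3 each, exact permutation p = 0.3). ANXA2 RNA, at 128 ± 15.2 FPKM in the Vector group and 185 ± 12.4 FPKM in the OE-MMP28 group, equalled 47.8% ± 5.80 and 64.9% ± 3.01 of that sum (SD, n = 3 each, exact permutation p = 0.1, the smallest possible). Within the sum, ANXA1, ANXA4, ANXA5, ANXA7 and ANXA11 made up 87.8% in the Vector group and 90.0% in the OE-MMP28 group. ANXA4 went from 16.0% to 20.1% of the sum, ANXA5 from 24.0% to 28.0% and ANXA6 from 0.00612% to 0.134%. ANXA7 went from 17.8% to 12.9%, ANXA11 from 14.7% to 12.4%, ANXA9 from 2.26% to 1.36% and ANXA10 from 0.679% to 0.250%. For each of these shares the groups did not overlap (exact permutation p = 0.1). Shares of one sum do not move independently of each other. In the Vector group ANXA5 led, followed by ANXA7, ANXA4, ANXA1 and ANXA11, which overlapped with their neighbours in this order. In the OE-MMP28 group ANXA5, ANXA4 and ANXA1 each lay above the next member in all 3 libraries, and ANXA7 and ANXA11 overlapped. In both groups ANXA13 and ANXA3 overlapped, followed by ANXA9, ANXA10 and ANXA6.

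**Figure D4:**
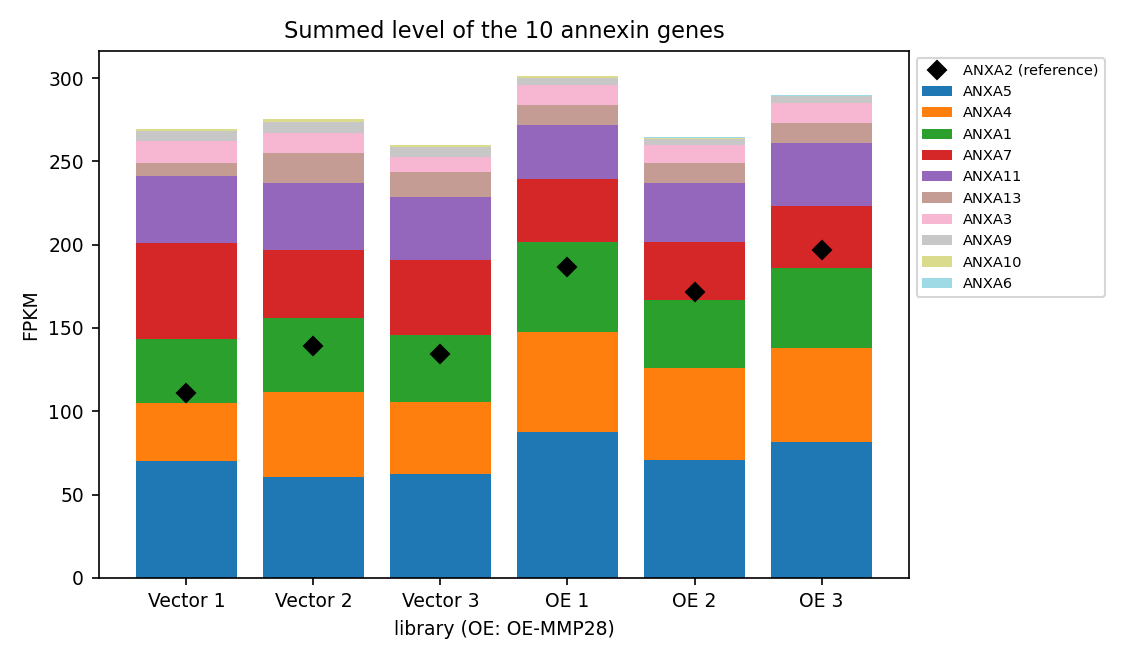
Stacked FPKM of the 10 annexins in each library, with the level of ANXA2 as a black diamond. The height of the stacks overlapped between the groups (260.1 to 275.6 against 264.6 to 301.3 FPKM), while the diamonds were higher in every OE-MMP28 library.

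Several annexin genes lie in regions where most genes were lower in OE-MMP28 cells. The median log2 fold change of tested genes was -0.41 on chromosome 2, -0.34 on chromosome 8 and -0.47 on chromosome 10, the only 3 of 23 chromosomes below -0.2, and these carry 4 of the annexins, ANXA4, ANXA13, ANXA7 and ANXA11. On the chromosomes of the other 6 members, the medians lay between 0.02 and 0.06. Within 10 Mb of ANXA4, 109 of 120 tested genes had a log2 fold change below 0, 48 were called lower and 1 was called higher. Against the local median of -0.48 the rise of ANXA4 had the larger log2 fold change of 0.91 (adjusted p = 0.000438, edgeR with that offset). The p-values with an offset take the local median, computed from these same libraries, as known without error. ANXA7 and ANXA11, which lie 6.78 Mb apart and share 81 neighbours, had local medians of -0.42 and -0.46. With these subtracted their log2 fold changes were 0.05 (adjusted p = 0.876) and 0.31 (adjusted p = 0.144). Around ANXA13 the local median was -0.27, and its log2 fold change became 0.09 (adjusted p = 0.815). The part of these regional shifts in the levels of the 4 genes was not tested. ANXA6 and ANXA10 stood apart from neighbours with local medians of 0.07 and 0.11, and TNIP1, the tested gene nearest to ANXA6, was lower (log2 fold change -0.64, adjusted p = 0.0125, edgeR). For ANXA9, whose local median was 0.03, the nearest tested gene MINDY1 was also lower (log2 fold change -0.69, adjusted p = 0.00938, edgeR).

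**Figure D5:**
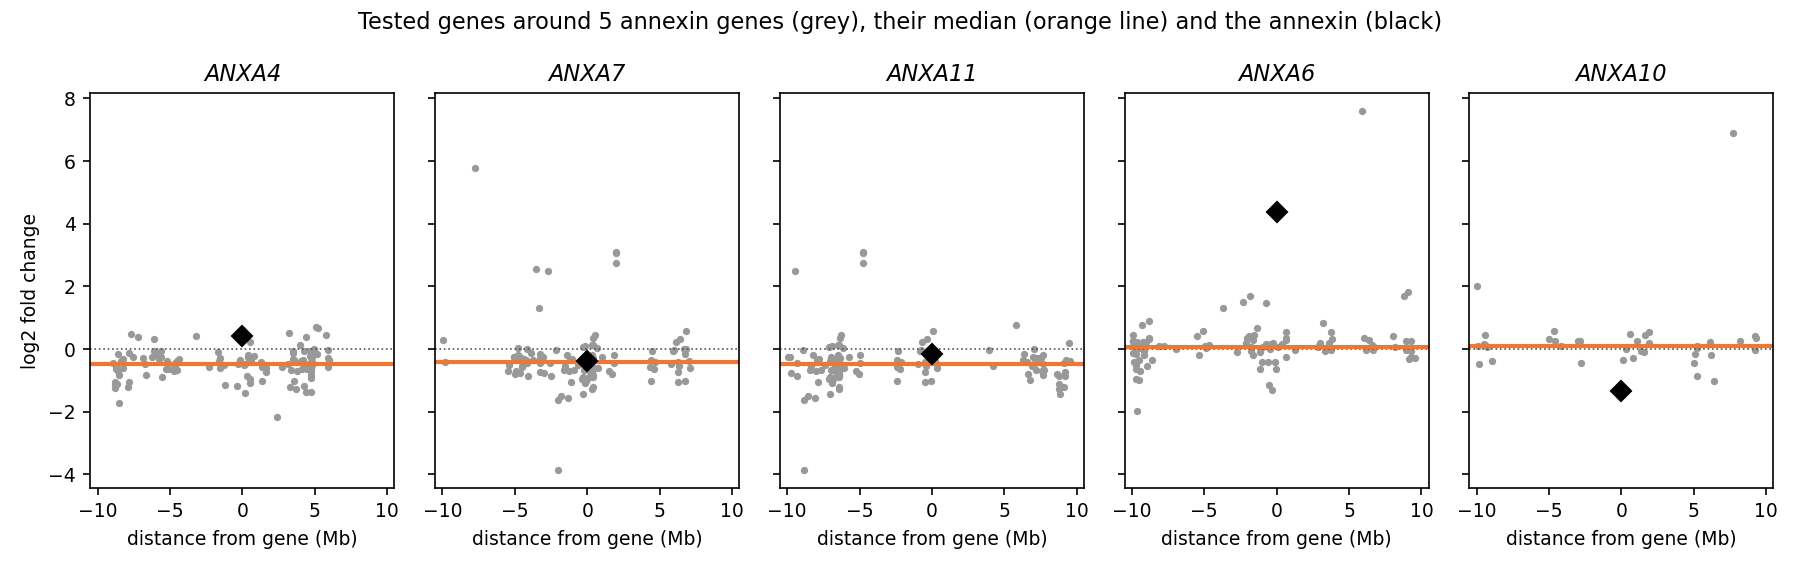
Log2 fold change of tested genes (vertical axis) by distance in Mb from 5 annexin genes (horizontal axis), with their median as an orange line and the annexin as a black diamond. The neighbours of ANXA4, ANXA7 and ANXA11 lie mostly below 0 (109 of 120, 93 of 114 and 99 of 116 genes), while 39 of the 104 neighbours of ANXA6 lie below 0.

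The genes whose levels across the 6 libraries were most like ANXA6 were P2RY2, PEPD and JAZF1, each with a Pearson r of 0.99 or more on log2 CPM (0.995, 0.995 and 0.994). P2RY2, a nucleotide receptor, was measured at 7.34, 6.10 and 4.98 FPKM in the Vector libraries and 21.5, 28.5 and 19.8 FPKM in the OE-MMP28 libraries. For ANXA10 they were KRT23, an epithelial keratin, ARHGAP10 and ITGB6 (r = 0.997, 0.997 and 0.996). The libraries form 2 groups, and of 12246 genes compared 315 were above 0.95 for ANXA6 and 257 for ANXA10. ANXA6 had 3, 1 and 0 counts in the Vector libraries and passed the filter only through the OE-MMP28 libraries. Its order within the Vector group thus rests on very few counts, and the genes named as most like it are a description only.

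Among 12 annexin partners 9 were tested, of which 2 were higher and 0 lower, beside 11.7% and 11.6% of all genes tested. PLA2G4A, the cytosolic phospholipase A2 that releases arachidonic acid, rose from 4, 5 and 2 counts to 48, 32 and 54 counts (log2 fold change 3.41, SE 0.47, adjusted p = 3.26e-05, edgeR). PDCD6, a calcium sensor that binds ANXA7 and ANXA11, rose from 17.9 ± 1.20 to 33.7 ± 2.44 FPKM (SD, n = 3 each, log2 fold change 0.92, SE 0.14, adjusted p = 0.000130, edgeR). The exons of AHRR overlap 2.57% of those of PDCD6 on the same strand. PLA2G4A passed the filter on low counts only through the OE-MMP28 libraries. The PDCD6 call held in all 18 alternative settings. S100A11, the partner of ANXA1, had a log2 fold change of 0.29 (adjusted p = 0.158, edgeR), and S100A10, the partner of ANXA2, had 0.02, with 34120 counts in Vector replicate 2 beside 12775 and 15061 in the other Vector libraries. Without that library, singled out here for its S100A10 count, the S100A10 log2 fold change was 0.68 (adjusted p = 0.00196, edgeR). In that fit 5 partners were higher, beside 1493 of all genes tested. Each other fit with 1 library left out gave 2 partners higher. Besides S100A10, the 5 were S100A4 and S100A6, named after their values were seen (adjusted p = 0.0433 and 0.0481, edgeR), PLA2G4A and PDCD6. Sorcin (SRI), which binds ANXA7 and ANXA11, likewise had 5347 counts in Vector replicate 2 beside 2329 and 2395. Its log2 fold change of -0.64 (adjusted p = 0.0671, edgeR) was -0.05 without that library, and SRI was called lower without Vector replicate 1 (adjusted p = 0.00427, edgeR), without Vector replicate 3 (0.0136) and with no filter on low counts (0.00116). The formyl peptide receptors, through which extracellular ANXA1 signals, were at or near 0, with no count for FPR2 and FPR3 and 3 counts in 1 OE-MMP28 library for FPR1. RASA1 and PRKCA, the remaining partners, were not called (log2 fold change 0.27 and -0.05, adjusted p = 0.220 and 0.869, edgeR). The median log2 fold change of the partners tested was 0.27, beside 0.01 for all genes.

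Of 16 genes of plasma membrane repair 14 were tested, of which 3 were higher and 1 was lower, beside 11.7% and 11.6% of all genes tested, with a median log2 fold change of 0.08. CAV1, the coat protein of caveolae, rose from 24.3 ± 3.60 to 82.9 ± 8.55 FPKM (SD, n = 3 each, log2 fold change 1.78, SE 0.16, adjusted p = 1.05e-07, edgeR) and was called in all 18 alternative settings. SMPD1, acid sphingomyelinase, and CHMP2A, an ESCRT-III subunit, had log2 fold changes of 0.61 and 0.54 (adjusted p = 0.0345 and 0.0347, edgeR), and neither was called without Vector replicate 2, Vector replicate 3, OE-MMP28 replicate 2 or OE-MMP28 replicate 3, which left 1 gene of the list higher in each of these fits. VPS4A, the ATPase that disassembles ESCRT-III, fell (log2 fold change -0.52, adjusted p = 0.0205, edgeR). Its exons overlap those of COG8 on the opposite strand over 22.0% of their length, and the counting is not stated to use strand. The VPS4A call ended without Vector replicate 3 (adjusted p = 0.0827, edgeR), without OE-MMP28 replicate 2 (0.104) and with the local median offset (adjusted p = 0.577, edgeR), its neighbours having a median log2 fold change of -0.37.

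Of 22 other lipid-binding genes with C2 domains 15 were tested, of which 4 were higher and 3 lower, beside 11.7% and 11.6% of all genes tested, with a median log2 fold change of -0.17. CPNE2, a copine that binds membrane in a calcium-dependent manner, fell from 5.13 ± 0.553 to 0.818 ± 0.103 FPKM (SD, n = 3 each, log2 fold change -2.63, SE 0.19, adjusted p = 9.52e-09, edgeR) and was called in all 18 alternative settings. CPNE3 also fell (log2 fold change -0.73, adjusted p = 0.00574, edgeR), and CPNE8, named here after its value was seen to complete the count, had a log2 fold change of -0.56 (adjusted p = 0.0151, edgeR). The genes that rose were DOC2B (log2 fold change 2.16), MCTP1 (1.42), DOC2A (1.22) and the synaptotagmin-like SYTL2 (1.05), with adjusted p-values of 0.00761, 0.000379, 0.0131 and 0.000150 (edgeR). The DOC2A call ended without OE-MMP28 replicate 2 or 3 (adjusted p = 0.0526 and 0.0712, edgeR), and that of CPNE8 without Vector replicate 3 or OE-MMP28 replicate 2 (0.0648 and 0.101). DOC2B was low throughout, with 7, 0 and 13 counts against 36, 30 and 33, and its log2 fold change was 1.61 without Vector replicate 2 and 3.06 without Vector replicate 3. This gene met the filter on low counts through the OE-MMP28 libraries and not through the Vector group.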

How the data were processed

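RNA of 6 AsPC-1 libraries (Vector, n = 3, and OE-MMP28, n = 3) was measured, grouped and numbered as the labels give them. The authors deposited whole-number read counts per gene, neither normalized nor pooled, and FPKM values. The submitters' processing notes name HISAT2 2.0.5 and featureCounts 1.5.0-p3, without their roles, and strand use and the treatment of reads that match several places are not given in the sources used here. The deposited table also held 5 columns of the authors' own comparison (such as fold changes and p-values), which were not used, and 0 per-sample columns were left unmapped. All 58735 genes matched GENCODE release 29 (GRCh38) in identifier and position.

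Counts were tested with edgeR 4.0.16 (quasi-likelihood, TMM scaling, group as the only term, R 4.3.3) on the 15319 genes kept by filterByExpr (min.count 10, min.total.count 15), and p-values were adjusted by Benjamini-Hochberg over all of them. FPKM values were compared by two-sided exact permutation tests, for which 0.1 is the smallest p that 3 against 3 libraries allow. Alternatives used DESeq2 1.42.0, limma 3.58.1 (voom, and log2(FPKM + 1) or log2(FPKM + 0.1)), other scalings and filters, each library left out, the replicate number as a block, removal of mitochondrially encoded genes, and a local offset, which is the median log2 fold change of the other tested genes within 10 Mb. No pair of libraries differed by less than sampling noise. The scripts were tested on simulated data. Likeness was the Pearson r of log2 CPM with a prior count of 2, for genes averaging 1 FPKM or more.

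The 10 annexins and the gene lists were chosen with earlier results of these data known. All 10 annexins were named, with ANXA2 and MMP28 as references, up to 6 called genes of each of 3 lists by the size of the change, and the 3 genes most like ANXA6 and ANXA10. Annexin partners that were not called in the main fit were named outside this rule.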

Additional observations from a re-analysis of the deposited data

How the results depend on the processing

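Beside the main fit, 18 settings were tried, 6 of them leaving out a library. The count of annexins higher (2) was 1 with upper-quartile scaling, DESeq2 size factors in edgeR, limma on log2(FPKM + 1), limma on log2(FPKM + 0.1), limma on log2(FPKM + 1) without a filter, no filter on low counts and without mitochondrially encoded genes. Over all genes these settings gave 1541, 1683, 1387, 1419, 362, 1739 and 1612 higher, in the same order, beside 1795 in the main fit. The count of annexins higher was 0 with at least 50 counts in 3 libraries, a filter that removes ANXA6 from the test and under which ANXA4 had an adjusted p of 0.0627 (edgeR). The count of annexins lower (2) was 0 with limma on log2(FPKM + 1) without a filter and 1 with at least 50 counts in 3 libraries, which removes ANXA10. With at least 50 counts, 1533 of all genes were higher and 1572 lower. Settings with another filter also tested another number of genes. Leaving out 1 library gave 1 to 2 annexins higher and 1 to 2 lower. Without Vector replicate 2 the annexins lower were ANXA7 and ANXA10. Over all genes, leaving out 1 library gave 985 to 1916 genes higher (1795 with all) and 1044 to 1949 lower (1784 with all). The count higher was 985 and the count lower 1044 without OE-MMP28 replicate 2, and the count higher was 1136 without Vector replicate 3. Limma without a filter gave 362 higher and 308 lower, and the local median offset gave 1101 higher.

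Offset by the local median, ANXA7, ANXA11 and ANXA13 had log2 fold changes of 0.047, 0.31 and 0.094. With 1 library left out, ANXA3 ranged from -0.061 (without Vector replicate 3) to 0.19, and ANXA13 from -0.46 to 0.089 (without Vector replicate 2). Apart from the filter and the offset, whose construction removes genes or subtracts the local median, the cause was not tested.

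Same-numbered libraries did not deviate together (r from -0.09 to 0.02, and for 0 of 3 Vector libraries was the best match its own number). No pairing by number was thus seen, but with 3 libraries per group a weak shared effect could have gone unseen. The labels do not say whether same-numbered libraries were prepared together. With the replicate block, 2 annexins were higher and 2 lower, 1844 of all genes were higher and 1841 lower, and the adjusted p was 0.0396 for ANXA4 and 0.0361 for ANXA9 (edgeR). The block also left 1 annexin partner, SRI, lower (adjusted p = 0.0359, edgeR). The low counts of ANXA6 and ANXA10 limit the precision of their fold changes.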

Other observations

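Beyond the genes named by rule, some neighbours of the annexins were chosen after their values were seen. ALDH1A1, a retinaldehyde dehydrogenase and the tested gene nearest to ANXA1, had 375, 736 and 537 counts in the Vector libraries and 376, 255 and 361 in the OE-MMP28 libraries, with a log2 fold change of -0.90 (adjusted p = 0.00699, edgeR). MXD1, a MYC antagonist 185 kb from ANXA4, had 1160, 963 and 907 counts against 465, 380 and 415 (log2 fold change -1.41, adjusted p = 4.26e-06, edgeR), opposite in direction to ANXA4. FBXO32, a ubiquitin ligase component near ANXA13, had a log2 fold change of -1.35 (adjusted p = 0.000162, edgeR). FRAS1, an extracellular matrix protein near ANXA3, had 84, 47 and 56 counts against 195, 224 and 158 (log2 fold change 1.49, adjusted p = 0.000199, edgeR).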
